A study of Mus musculus with 6 samples.

Results

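The Src family kinases (SFKs) and 2 of their regulators were followed in bone marrow-derived macrophages (BMDMs), primary macrophages grown from bone marrow in medium that supplies M-CSF. The genes were picked by symbol as a family with its regulators, with no threshold on their values, although earlier results of these data were known. They were the kinases Src, Lyn, Fgr, Fyn, Yes1 and Lck, the kinase Csk and the Csk-binding adaptor Pag1, 8 of the 55291 genes in the deposited count table. BMDMs came from 3 wild-type (WT) mice and 3 mice with a Pyk2 knock-out (PYK2 KO) labelled C57BL/6, with 1 library per mouse and RNA taken after 7 days in culture. The knock-out is constitutive, so the marrow cells and their progeny lacked PYK2 during differentiation as well as at harvest. No stimulus beyond the growth medium was given in either genotype, and the age and sex of these mice are not given in the sources used here.

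SFKs are membrane-anchored tyrosine kinases that act directly below integrins and immune receptors. Each one is held closed by a phosphorylated tyrosine in its tail. Csk adds that phosphate, phosphatases such as CD45 remove it, and Pag1 brings Csk to the membrane. In macrophages, SFKs phosphorylate receptor motifs that recruit Syk, and they bind and phosphorylate PYK2 and the related kinase FAK at sites of adhesion. The comparison of WT with PYK2 KO BMDMs asks whether losing this partner goes along with a change in the transcripts of the kinases themselves.

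The libraries held between 2857097 and 3917207 counts, and the genotypes overlapped in depth. The targeted gene, Ptk2b, had 737, 701 and 568 counts in WT libraries 1, 5 and 6 and 71, 64 and 69 in PYK2 KO libraries 2, 3 and 4, or 11.2% of the WT level after normalization. All 9 macrophage markers examined, among them Csf1r, Cd68 and Adgre1, were detected in every library, and none of the 9 passed the test between genotypes. Their summed level was 29300 to 30000 CPM in WT and 30500 to 31500 CPM in the PYK2 KO libraries, most of it from Lyz2. The markers read for NK cells (3 of 3) and erythroid cells (5 of 5) had no count in any library. Of the 5 B cell markers, Cd79b had 43 to 80 counts per library and the other 4 had none. Of the 4 dendritic cell markers, Itgax had 7 to 17 counts per library and the other 3 had none. The mast cell, basophil and stromal markers had at most 5 counts in any library. Counts were scaled to a common library size with TMM factors (CPM), and 9815 genes with enough counts were compared with edgeR's quasi-likelihood test. Because reads come from the 3′ ends of transcripts and capture differs between transcripts, levels of different genes are not compared here, and mean CPM served only to pick which genes to name. In such bulk samples, fewer cells of a type and less RNA per cell cannot be told apart.

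Of the 8 genes, 6 passed the filter on low counts, and 0 of these 6 passed an adjusted p-value under 0.05, against 0.255% of all genes tested (0.112% higher and 0.143% lower in PYK2 KO BMDMs). At an unadjusted p-value under 0.05 there were 2, Fgr and Src, against a background of 6.03%. The background was 3.4% for genes higher in PYK2 KO BMDMs, like Fgr, and 2.63% for genes lower, like Src. The same pair were the members whose WT and PYK2 KO libraries did not overlap, as was true of 10.2% of all genes tested (5.17% higher and 5.07% lower in PYK2 KO BMDMs). Fgr was the higher one in PYK2 KO BMDMs and Src the lower one. Lyn, Fyn, Csk and Pag1 overlapped between genotypes. Over the 6 genes the log2 fold changes had a median of -0.08, against 0 for all genes tested. The smallest adjusted p-value among them was that of Fgr (0.627, edgeR, Benjamini-Hochberg).

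**Figure D1:**
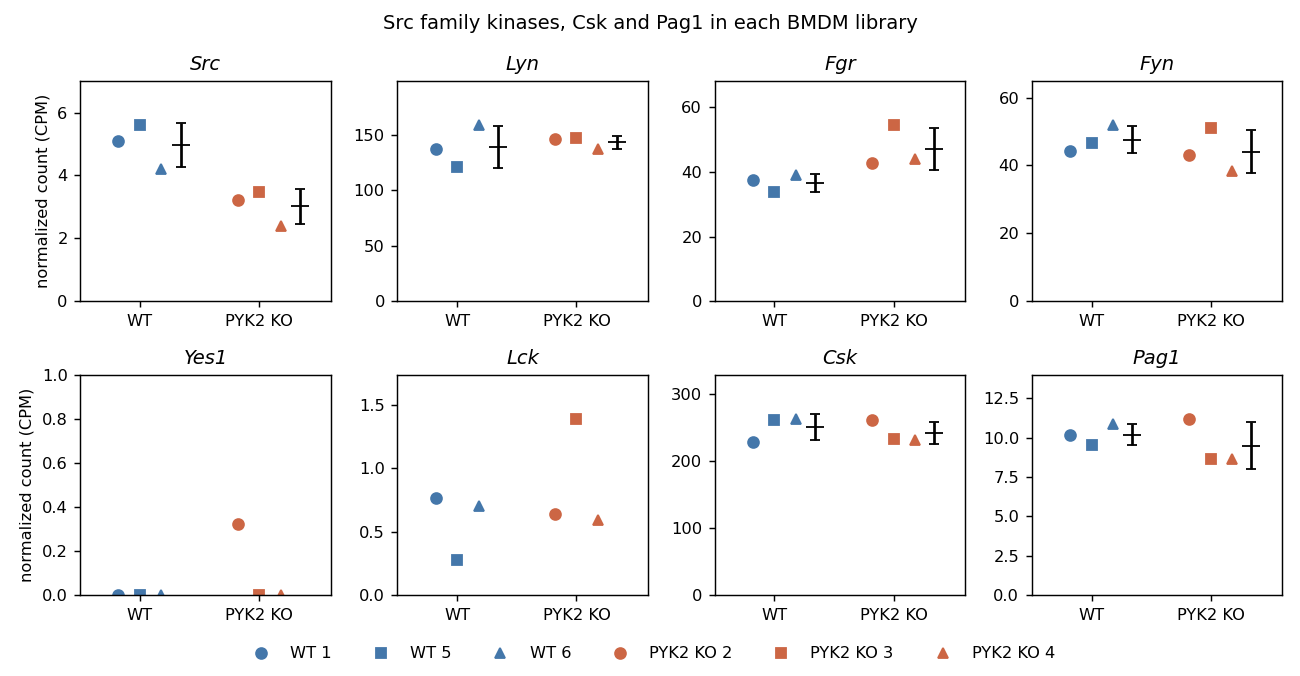
Normalized counts (CPM, linear axes that start at 0) of the 8 genes in each of the 3 WT and 3 PYK2 KO libraries. Symbols are single libraries and the black bars are the mean ± SD of 3 libraries, drawn for the 6 genes that passed the filter. The 3 PYK2 KO points lie above the WT points for Fgr and below them for Src.

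Fgr, an SFK largely restricted to myeloid cells, lies on chromosome 4 from 132974095 to 133001910 on the plus strand (GENCODE M21, GRCm38, the build also called mm10), and no other annotated gene overlaps it. The window around its start is shown because Fgr is 1 of the 2 members whose libraries did not overlap. In the 300 bases of chr4:132973845-132974144 (plus strand, RefSeq on GRCm38.p6), which run from 250 bases before the start to 50 after it, the capitals mark GAGGAAG or its reverse complement CTTCCTC, the core that the myeloid factor PU.1 can bind.
Fgr: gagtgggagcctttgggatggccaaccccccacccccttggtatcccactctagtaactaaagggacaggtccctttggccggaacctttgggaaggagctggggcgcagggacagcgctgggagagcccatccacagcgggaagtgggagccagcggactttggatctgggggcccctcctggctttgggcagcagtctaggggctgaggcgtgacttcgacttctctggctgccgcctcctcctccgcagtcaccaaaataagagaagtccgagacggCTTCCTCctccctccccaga
The match begins 31 bases into the transcript. This core was found in 13.6% of the 32851 promoter windows of the same length, so it is common, and neither GGGCGG (the GC box, in 35.7% of windows) nor TATAAA (in 13.6%) was found on either strand of the Fgr window.

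Fgr had 146, 120 and 111 counts in WT libraries 1, 5 and 6, and 133, 157 and 147 in PYK2 KO libraries 2, 3 and 4. After normalization the WT libraries stood at 37.3, 33.6 and 38.9 CPM and the PYK2 KO libraries at 42.7, 54.4 and 43.8 CPM. The lowest PYK2 KO library was above the highest WT library, and PYK2 KO library 3 stood highest. WT BMDMs averaged 36.6 ± 2.72 CPM and PYK2 KO BMDMs 47.0 ± 6.46 CPM (SD, n = 3 mice per genotype). The log2 fold change was 0.36 (standard error 0.13, 95% interval 0.08 to 0.63), a 1.28-fold higher level, with an unadjusted p of 0.0141 and an adjusted p of 0.627 in edgeR's test. The two-sided exact permutation test gave p = 0.1, the smallest that 3 against 3 mice allow. Without PYK2 KO library 3 the log2 fold change was 0.24 and the unadjusted edgeR p was 0.103, and without WT library 5 they were 0.30 and 0.0618.

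Fgr is also a neutrophil kinase, so the 8 markers of neutrophils and their precursors were read in the same libraries. Their summed level ran from 127 to 180 CPM over the WT libraries and from 133 to 229 CPM over the PYK2 KO libraries. It was 229 CPM in PYK2 KO libraries 3 and 4 and 133 CPM in library 2, while Fgr was above every WT library in all 3 of them. S100a9, a calcium-binding protein of neutrophils and monocytes, stood at 50.7, 93.2 and 103 CPM in PYK2 KO libraries 2, 3 and 4 and averaged 44.9 ± 22.5 CPM in WT BMDMs (SD, n = 3 mice), where library 1 reached 70.7 CPM (log2 fold change 0.85, unadjusted p = 0.00596, adjusted p = 0.537, edgeR). Mpo, myeloperoxidase of granulocyte precursors, had 4 to 12 counts in WT and 11 to 21 counts in PYK2 KO libraries, without overlap in CPM (log2 fold change 1.19, unadjusted p = 0.00908, adjusted p = 0.591, edgeR). These were 2 of the 6 neutrophil markers tested, against 6.03% of all genes (3.4% higher in PYK2 KO BMDMs), and both unadjusted p-values were smaller than that of Fgr. S100a8, Ngp, Camp and Ltf had log2 fold changes of 0.10, 0.19, -0.26 and -0.09, Elane had 5 to 12 counts and was not tested, and Ly6g, the defining surface marker, had at most 1 count in any library. The part of these cells in the Fgr difference was not tested.

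Src, the founding member of the family, which osteoclasts and macrophages use at podosomes, lies on chromosome 2 from 157418444 to 157471862 on the plus strand with no overlapping annotated gene. Its RefSeq window at chr2:157424043-157424342 (plus strand, GRCm38.p6) is given for comparison with Fgr, with the same core in capitals.
Src: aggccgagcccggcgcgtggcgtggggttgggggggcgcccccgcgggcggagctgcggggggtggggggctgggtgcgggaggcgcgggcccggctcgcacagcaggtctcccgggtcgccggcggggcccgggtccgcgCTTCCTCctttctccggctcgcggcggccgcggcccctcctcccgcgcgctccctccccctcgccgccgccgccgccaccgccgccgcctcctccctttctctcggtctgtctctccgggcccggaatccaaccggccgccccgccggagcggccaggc
The window belongs to a RefSeq start that lies inside the gene, downstream of the first annotated start given above, and the match begins 109 bases before that RefSeq start. The Src window held GGGCGG or its reverse complement CCGCCC at 2 places and had 82.3% G and C, against 62.7% for Fgr and a median of 52.7% over all windows, and TATAAA was absent from both strands. The core was also present in windows of members that overlapped or were not tested, at 2 places in 1 of the 2 windows of Csk and at 1 place in 1 of the 2 windows of Lck, and it was absent from those of Fyn and Yes1. These matches are letters in a window and were not tested as binding sites.

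Src was thinly covered. It had 20, 20 and 12 counts in WT libraries 1, 5 and 6 and 10, 10 and 8 counts in PYK2 KO libraries 2, 3 and 4, so it rested on 52 counts in WT and 28 in PYK2 KO BMDMs. The WT levels were 5.11, 5.60 and 4.21 CPM, and the PYK2 KO levels 3.21, 3.46 and 2.38 CPM. Every PYK2 KO library was below every WT library. WT BMDMs averaged 4.97 ± 0.706 CPM and PYK2 KO BMDMs 3.02 ± 0.564 CPM (SD, n = 3 mice per genotype), or 60.7% of WT. This was a log2 fold change of -0.74 (standard error 0.32, 95% interval -1.42 to -0.05), with an unadjusted p of 0.0372 and an adjusted p of 0.783 in edgeR's test, and the two-sided exact permutation p was 0.1. The interval runs from 0.373 to 0.966 of the WT level, so the size of the Src difference was poorly fixed at this depth. DESeq2 gave Src an unadjusted p of 0.148 at a log2 fold change of -0.73. Leaving out WT library 1 or 5 gave an unadjusted edgeR p of 0.0787 or 0.118, and leaving out PYK2 KO library 2 or 4 gave 0.0621 or 0.137. Between libraries of the same genotype, Src counts spread no more than counting error gives, with a chi-square of 0.324 per degree of freedom against a median of 1.49 over all genes tested.

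**Figure D2:**
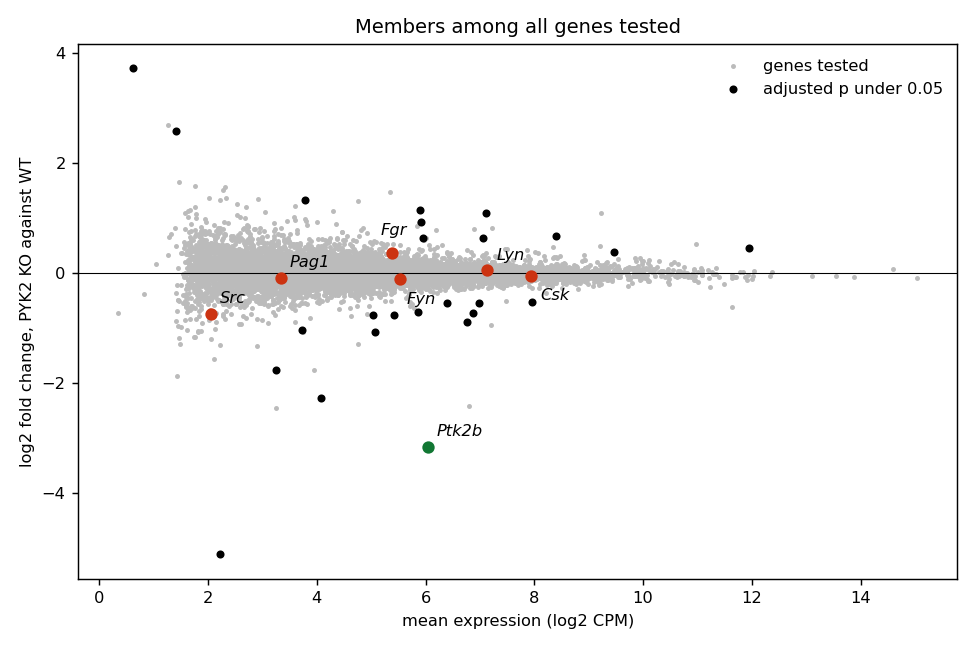
Log2 fold change of PYK2 KO against WT BMDMs (vertical axis) against mean expression in log2 CPM (horizontal axis) for the 9815 genes tested, with the 25 genes past an adjusted p of 0.05 in black, the 6 tested members in red and Ptk2b in green. Ptk2b is also one of the 25. The 6 members lie among the grey points, with Src at the lowly expressed end.

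Lyn, which starts signaling from activating receptors and also from inhibitory ones, lies on chromosome 4 from 3678115 to 3813122 on the plus strand. It had 536, 432 and 454 counts in WT libraries 1, 5 and 6 and 455, 423 and 459 counts in PYK2 KO libraries 2, 3 and 4. Normalized, WT had 137, 121 and 159 CPM and PYK2 KO 146, 147 and 137 CPM, so the WT libraries held both the lowest and the highest value. Lyn had a log2 fold change of 0.05 with a standard error of 0.10 (adjusted p = 0.99, edgeR), which moved to -0.05 without WT library 5 and to 0.15 without WT library 6. Its 95% interval ran from 0.894 to 1.19 of the WT level.

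Blk, an SFK of B cells, had no count, and Frk, a kinase of epithelial cells, had 2 counts over all libraries.

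Fyn, which is used by many cell types, lies on chromosome 10 from 39368855 to 39565381 on the plus strand, and an annotated antisense gene, Gm16365, overlaps its 3′ end. The annotated genes that overlap Fyn had no count in the table. Fyn had 173, 167 and 148 counts in WT libraries 1, 5 and 6 and 134, 147 and 129 counts in PYK2 KO libraries 2, 3 and 4. WT BMDMs averaged 47.6 ± 3.92 CPM and PYK2 KO BMDMs 44.1 ± 6.31 CPM (SD, n = 3 mice per genotype), and the groups overlapped through PYK2 KO library 3 at 50.9 CPM. The log2 fold change of Fyn was -0.11 (95% interval -0.38 to 0.16, adjusted p = 0.96, edgeR). It moved to -0.22 without PYK2 KO library 3 and to -0.02 without PYK2 KO library 4.

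Lck and Yes1 had at most 4 counts in any library and did not pass the filter. Lck, the SFK of T cells, occupies positions 129548344 to 129573641 of chromosome 4 (minus strand). It had 3, 1 and 2 counts in WT libraries 1, 5 and 6 and 2, 4 and 2 counts in PYK2 KO libraries 2, 3 and 4, and no fold is given. Among the 9 T cell markers read, Cd3e, Cd3d, Cd8a and Zap70 had no count in any library, and Cd3g, Trac and Cd2 had at most 2 counts in any. Lat, an adaptor of T cells and other leukocytes, had 17 to 25 counts and Cd4, which macrophages can also express, 14 to 31 counts, and both overlapped between genotypes. Yes1, a widely expressed SFK, lies on chromosome 5 from 32611171 to 32687057 on the plus strand. Yes1 had 1 count in all, in PYK2 KO library 2, and 0 of the 10420479 WT counts, which allows a level of up to 0.288 CPM (3 counts over the WT libraries together). This limit covers counting error only, since the reads may not be independent molecules.

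Csk, the kinase that closes SFKs, occupies positions 57626646 to 57653631 of chromosome 9 (minus strand). It had 895, 937 and 749 counts in WT libraries 1, 5 and 6 and 812, 673 and 774 counts in PYK2 KO libraries 2, 3 and 4. The WT levels of 229, 262 and 263 CPM and the PYK2 KO levels of 261, 233 and 231 CPM overlapped. With means of 251 ± 19.5 CPM for WT and 241 ± 16.6 CPM for PYK2 KO BMDMs (SD, n = 3 mice per genotype), Csk had the narrowest interval of the members. The log2 fold change was -0.06 (95% interval -0.24 to 0.13, adjusted p = 0.973, edgeR), or between 0.845 and 1.10 of the WT level. Leaving out 1 library moved it between -0.12 (WT library 1) and -0.02 (WT library 5 or 6, or PYK2 KO library 4).

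Pag1, the transmembrane adaptor that binds Csk when phosphorylated, occupies positions 9687479 to 9833679 of chromosome 3 (minus strand). It had 40, 34 and 31 counts in WT libraries 1, 5 and 6 and 35, 25 and 29 counts in PYK2 KO libraries 2, 3 and 4. PYK2 KO library 2 held the highest of the 6 Pag1 levels, at 11.2 CPM, and libraries 3 and 4 the lowest, at 8.66 and 8.64 CPM. The log2 fold change of -0.10 had a 95% interval from -0.55 to 0.36, that is, from 0.682 to 1.28 of the WT level. It was -0.23 when PYK2 KO library 2 was left out and -0.03 when PYK2 KO library 4 was.

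The spread between mice of 1 genotype differed among the genes. The chi-square per degree of freedom within genotypes was 4.55 for Lyn and 4.57 for Csk, both above the median of 1.49 over the genes tested. It was 1.67 for Fgr, 1.92 for Fyn and 0.435 for Pag1. This measure is relative to counting error and grows with the count. The SD as a percent of the mean in WT and PYK2 KO was 14.2% and 18.7% for Src and 7.45% and 13.8% for Fgr. It was 8.23% and 14.3% for Fyn and 6.61% and 15.6% for Pag1. For Lyn it was 13.8% and 3.82%, and for Csk 7.78% and 6.86%. The percent was thus larger in PYK2 KO for Src, Fgr, Fyn and Pag1 and larger in WT for Lyn and Csk.

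The kinases are close relatives, and how reads that map to several genes were counted is not given in the sources used here. Among coding transcripts of the 6 SFKs described here, Csk and Ptk2b, the longest stretch of identical bases was 23, shared by Src and Fgr and by Lyn and Lck. Fyn and Yes1 shared at most 22 bases.

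Ratios within a library do not depend on the scaling between libraries, and they were taken against Lyn. The counts of Fgr per 100 counts of Lyn were 27.2, 27.8 and 24.4 in WT libraries 1, 5 and 6 and 29.2, 37.1 and 32.0 in PYK2 KO libraries 2, 3 and 4. They did not overlap, with means of 26.5 ± 1.79 for WT and 32.8 ± 4.00 for PYK2 KO BMDMs (SD, n = 3 mice per genotype). Src per 100 counts of Lyn was 2.64 to 4.63 in WT and 1.74 to 2.36 in PYK2 KO libraries, also without overlap. Fyn per 100 counts of Lyn was 32.3 to 38.7 in WT and 28.1 to 34.8 in PYK2 KO libraries, which overlapped. These ratios reuse the Fgr, Src and Fyn counts given above, so their separation is no further evidence. In CPM, 10.2% of all genes tested did not overlap, and the share for ratios to Lyn was not computed. The ratios describe the counts and were given no test.

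**Figure D3:**
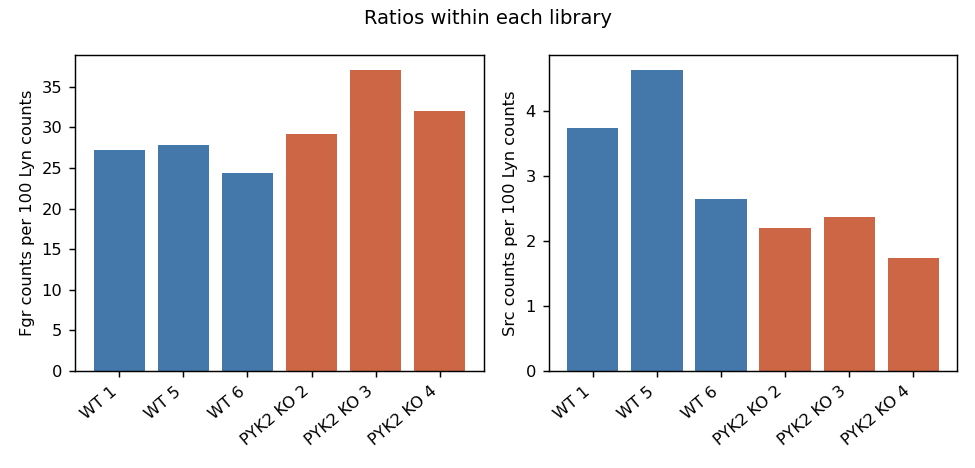
Counts of Fgr (left) and of Src (right) per 100 counts of Lyn in each library, with WT libraries in blue and PYK2 KO libraries in orange (bars are single libraries and both axes start at 0). The Fgr bars run from 24.4 to 27.8 in WT and from 29.2 to 37.1 in PYK2 KO libraries, and the Src bars from 2.64 to 4.63 and from 1.74 to 2.36.

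The other genes of the pathway were read in 5 lists of 39 genes, of which 31 passed the filter. None of the 31 passed an adjusted p of 0.05 (0.255% of all genes tested did), 2 had an unadjusted p under 0.05 in edgeR's test (6.03% of all genes), and with DESeq2 and limma-voom the number past the adjusted threshold was also 0. The libraries of the genotypes did not overlap for 5 of the 31 (Ptk2, Ptpn22, Matk, Pirb and Skap2), against 10.2% of all genes. The median log2 fold change was -0.04, with 13 genes higher and 18 lower.

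The list of phosphatases that act on SFKs held 7 genes, which passed the filter, and did not include Ptpn22, Ptpn12 and Ptpn18, which were listed with the partners of Csk. Ptprc, which encodes CD45, had a log2 fold change of 0.02 (95% interval -0.18 to 0.23) and Ptpn6, which encodes the inhibitory phosphatase SHP-1, one of -0.06 (95% interval -0.24 to 0.12). Ptpra, a receptor phosphatase that opens Src and Fyn, had 0.08. The 7 genes of this list ran from -0.30 for Ptprj to 0.08, 0 of them had an unadjusted p under 0.05 (6.03% of all genes did), and none separated the genotypes (10.2% of all genes did).

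Among the Csk homologue and the partners of Csk, 7 of 10 genes passed the filter. Ptpn22, a phosphatase that binds Csk and acts on SFKs, had 22.2, 19.3 and 20.0 CPM in WT libraries 1, 5 and 6 and 24.1, 27.7 and 29.2 CPM in PYK2 KO libraries 2, 3 and 4. Its groups did not overlap, and the log2 fold change was 0.39 (standard error 0.15, unadjusted p = 0.0173, adjusted p = 0.661, edgeR). The unadjusted p was 0.0669 with DESeq2, and leaving out WT library 5 or PYK2 KO library 4 in edgeR gave 0.0575 or 0.066. Matk, the Csk homologue, averaged 8.41 ± 1.01 CPM for WT and 6.31 ± 0.247 CPM for PYK2 KO mice (SD, n = 3 per genotype), also without overlap, with a log2 fold change of -0.41 (95% interval -0.92 to 0.10). Ptpn18, Dok1 and Dok3 lay within 0.08 of 0 on the log2 scale. Lime1, Sit1 and Cblc had no count.

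Cbl and Cblb, ubiquitin ligases that take active kinases out of use, had log2 fold changes of 0.05 and -0.08. Of the 18 substrates and partners, 15 passed the filter and 9 of these had a negative and 6 a positive log2 fold change. Ptk2, which encodes FAK, the closest relative of PYK2, had 9.70, 9.24 and 12.3 CPM in WT libraries 1, 5 and 6 and 5.13, 6.58 and 5.36 CPM in PYK2 KO libraries 2, 3 and 4. Its log2 fold change of -0.86 (95% interval -1.38 to -0.34, unadjusted p = 0.00298, adjusted p = 0.401, edgeR) was the largest of the pathway lists in size, and the groups did not overlap. Ptk2 was also thinly covered, with 106 counts in WT and 53 in PYK2 KO BMDMs, or 16 to 38 per library. Pirb and Sirpa, inhibitory receptors that SFKs phosphorylate, had log2 fold changes of -0.14 and -0.11, and Prkcd, a protein kinase C isoform, one of 0.13. Skap2, an adaptor that SFKs phosphorylate, had 251 ± 4.83 CPM in WT against 270.3 ± 14.2 CPM in PYK2 KO BMDMs (mean ± SD of 3 mice), without overlap and with a log2 fold change of 0.11 (95% interval -0.06 to 0.28). Syk had -0.02 (95% interval -0.19 to 0.14). Bcar1, Tgfb1i1 and Cttn, which encode adhesion and actin adaptors, had 6, 6 and 3 counts over all libraries and were not tested.

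**Figure D4:**
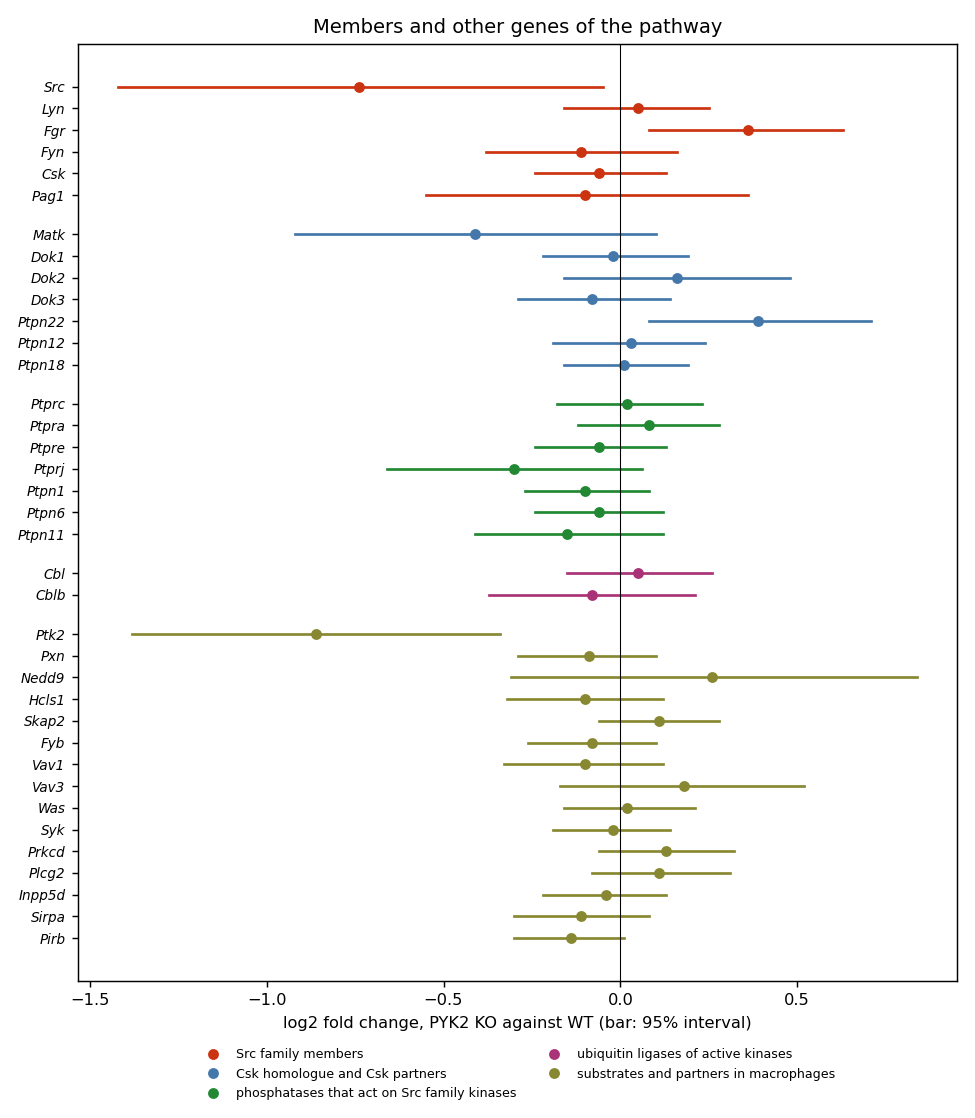
Log2 fold changes of PYK2 KO against WT BMDMs for the 6 tested members and the 31 tested genes of the pathway lists, grouped by list. Points are the estimates and bars the 95% intervals from edgeR's quasi-likelihood fit, without adjustment for the number of genes. The bars of Src, Fgr, Ptpn22 and Ptk2 lie off 0.

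For Csk, Lyn and Fyn, the members with the highest mean CPM, the genes with the most similar profile over the 6 libraries were sought among the 9815 genes tested. Likeness was the root mean square difference in log2 CPM after centring each gene on its own mean. The closest to Csk were Mybbp1a, Tle5 and D230025D16Rik, at differences of 0.013, 0.014 and 0.017. The closest to Lyn were Nup88, Micall2 and Gtf3c6, at 0.024, 0.038 and 0.043. For Fyn they were Fam193b, Ralgps1 and Tmem87b, at 0.025, 0.035 and 0.036. About their own means, Csk, Lyn and Fyn themselves varied by only 0.091, 0.121 and 0.147 (root mean square). With 9815 genes and 6 libraries, small differences do not by themselves mark shared regulation, which was not tested. No other member was among the 3 closest genes of these 3 members. With only 3 of 9815 genes listed for each, this says little about likeness between members. Src, Fgr and Pag1 were not searched.

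**Figure D5:**
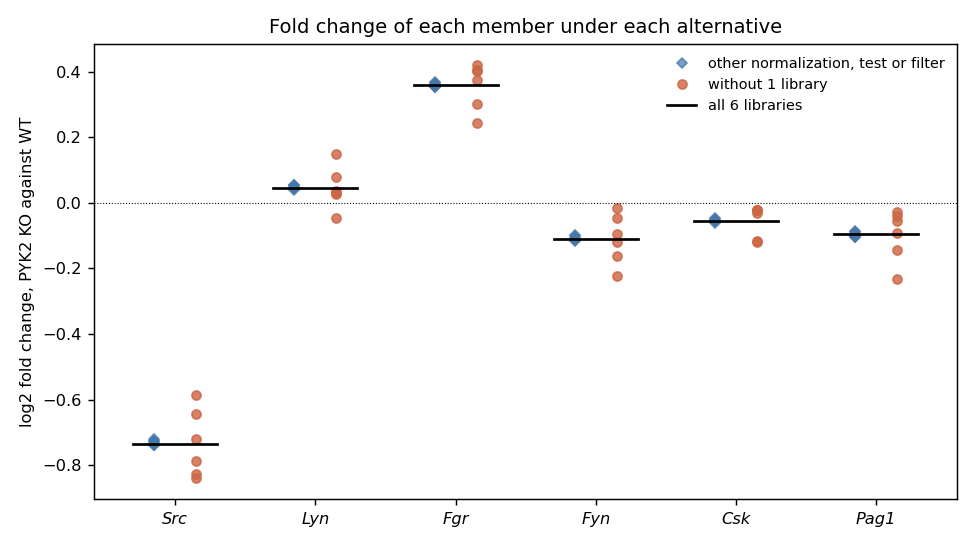
Log2 fold change of each tested member (vertical axis) with all 6 libraries (black line), under each other normalization, test, filter or covariate (blue diamonds), and with 1 library left out (orange circles). Src stays between -0.84 and -0.58 and Fgr between 0.24 and 0.42 without 1 library, while Lyn crosses 0.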

How the data were processed

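BMDM RNA of 3 WT and 3 PYK2 KO mice was made into 3′-end RNA-seq libraries with bulk MARS-seq. The authors mapped and counted reads with the UTAP pipeline, and their processing notes name cutadapt, STAR and the build mm10. The deposited values are whole-number counts per gene without normalization, and whether molecular identifiers were collapsed is not given in the sources used here. The 6 columns were matched to mice by name, and the totals, from 2857097 to 3917207 counts, limit the precision of low genes. In R 4.3.3, edgeR 4.0.16 (filterByExpr, TMM, quasi-likelihood test on genotype, Benjamini-Hochberg over all genes tested) was run. Standard errors are the log2 fold change divided by the root of F. Alternatives were other scaling factors, tests (DESeq2 1.42.0, limma 3.58.1), filters, a residual principal component and leaving out each library. The script was tested on simulated data. The members and lists were chosen with earlier results of these data known. Genes named were the members, Ptk2b, listed genes with an unadjusted p under 0.05, up to 3 of each list by mean CPM and the 3 most alike genes of 3 members, and other genes (Matk, Skap2, Syk, Ptprj, markers, genes without counts) were named after their values were seen. Promoter windows of 6 of the 8 members were matched by symbol. The lists as first drawn held 2 more genes, which are not reported here and are in no count of listed genes.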

Additional observations from a re-analysis of the deposited data

How the results depend on the processing

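The number of members past the adjusted threshold was 0 in each of the 15 alternative fits. At an unadjusted p under 0.05 it was 2 with all libraries, 1 with DESeq2 (Fgr) and 1 with at least 10 counts in every library, where Src was not tested, and 0 to 2 with 1 library left out. The 0 came without WT library 5, and leaving out WT library 1 or any 1 PYK2 KO library gave 1. Over all genes, that count was 592 of 9815 with all libraries, 271 of 9815 with DESeq2, 553 of 9135 with at least 10 counts in every library, and from 440 of 9915 (without PYK2 KO library 4) to 697 of 10030 (without WT library 6) with 1 left out. Src had an unadjusted p of 0.0371 to 0.137 and Fgr one of 0.0105 to 0.103 with 1 library left out. Of 89 member values, 88 kept their direction and 1 reversed. Lyn ran from -0.046 (reversed, without WT replicate 5) to 0.149 (without WT replicate 6). The Fgr to Lyn ratio was higher in PYK2 KO by 6.3 counts of Fgr per 100 of Lyn, and by 4.14 to 8.08 with 1 library left out. Over all genes, 25 passed, 45 with the likelihood ratio test, 159 without a filter, 60 with the first residual principal component as a covariate, and 14 (without PYK2 KO library 4) to 34 with 1 library left out, and 15 when PYK2 KO library 2 or WT library 5 was left out. The causes were not tested. Ptk2b ran from -3.19 to -3.11 and stayed past the threshold in each. The labels give no pairing of WT with PYK2 KO mice, so no paired analysis was run. The depth limits Src, Pag1, Lck and Yes1 most.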
